A study of Homo sapiens with 4 samples.

Results

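The 10 genes described here encode the RUNX, ETS and GFI transcription factors of blood and megakaryocyte development: RUNX1, RUNX2, RUNX3 and their partner CBFB, the ETS factors FLI1, ERG, ETS1 and ETS2, and the repressors GFI1 and GFI1B. Every probe that the array design names for 1 of these genes was taken and kept apart from the other probes of that gene, which gave 21 of the 41000 probes on the array. All 21 had a value on all 4 arrays, and 17 of them, with at least 1 for each of the 10 genes, were well above background in all 8 channels (4 arrays with 2 RNAs each).

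RNA came from Meg-01, an established human megakaryoblastic leukemia cell line, grown in culture. GATA1 5-13 and GATA1 4-14 are each 1 clone that stably carries a lentiviral GATA1 shRNA, and GATA1 Neg is a pool of Meg-01 cells infected with a lentivirus for a control shRNA without a human target. Each of 4 two-colour Agilent arrays, all on 1 slide, carried 1 clone and GATA1 Neg, and replicates 1 and 2 of a clone had the clone in the red and in the green channel. The labels' RNA extraction text names CMK, another megakaryoblastic line, where all other labels name Meg01. All values below are log2 ratios of clone over GATA1 Neg, so that negative values are lower in the clone. Values from both arrays of a clone were averaged first, which left n = 2 clones, and the mean of the clones was tested against 0 with limma over 40974 probes. GATA1 Neg was on every array, so its own spread was not measured, and both clones share it.

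RUNX factors bind DNA through the runt domain, as pairs with CBFB, which does not touch DNA itself but tightens the binding. ETS factors recognize a short purine-rich core, and in megakaryocytes FLI1 and ERG occupy many regulatory regions together with RUNX1, GATA1 and TAL1. GFI1 and GFI1B are zinc finger repressors that recruit histone demethylase and deacetylase complexes; GFI1 is best known from stem cells and granulocytes, GFI1B from red cells and megakaryocytes. RUNX1, FLI1 and GFI1B are genes of inherited platelet disorders.

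GATA1 binds short motifs around a GATA core, and the starts of the members were searched for them. RefSeq promoter windows on GRCh38.p14 were found for 7 of the 10 genes, 16 windows in all. In the 250 bases before each start, a match on either strand to AGATAA, the same motif ending in G (AGATAG), the variant TGATAA, or its form ending in G (TGATAG) was found in 4 of the 16 windows, 2 of them overlapping windows of ERG, against 22.3% of all 35116 windows. The 3 windows shown here hold these matches, in capitals, for a gene that was lower on all arrays at each of its probes (ERG, ETS2) and for a gene that was not (GFI1B). ERG lies at chr21:38498505-38498754 on the minus strand, ETS2 at chr21:38804933-38805182 on the plus strand and GFI1B at chr9:132978444-132978693 on the plus strand. Each is printed 5′ to 3′ along its gene.
ERG: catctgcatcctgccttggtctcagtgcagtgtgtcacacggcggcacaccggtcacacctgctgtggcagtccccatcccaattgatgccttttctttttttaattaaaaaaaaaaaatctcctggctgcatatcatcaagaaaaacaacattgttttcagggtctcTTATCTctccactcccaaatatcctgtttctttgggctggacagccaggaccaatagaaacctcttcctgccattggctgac
ETS2: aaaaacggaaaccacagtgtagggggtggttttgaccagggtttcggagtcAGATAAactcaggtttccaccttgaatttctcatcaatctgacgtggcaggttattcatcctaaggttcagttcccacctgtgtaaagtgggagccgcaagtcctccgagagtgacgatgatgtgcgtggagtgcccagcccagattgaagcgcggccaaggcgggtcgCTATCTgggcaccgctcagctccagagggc
GFI1B: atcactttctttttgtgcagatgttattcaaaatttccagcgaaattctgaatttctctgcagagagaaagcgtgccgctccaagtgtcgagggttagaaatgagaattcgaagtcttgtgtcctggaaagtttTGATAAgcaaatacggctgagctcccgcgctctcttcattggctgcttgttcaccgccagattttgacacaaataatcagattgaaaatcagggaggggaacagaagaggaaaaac
The match lies 82 bases before the start in ERG, 199 and 30 bases in ETS2, and 116 bases in GFI1B. RUNX motifs (TGTGGT or TGCGGT) were in 4 of the 16 windows against 16.3% of all windows, and ETS motifs (CCGGAA or AGGAAG) in 8 of 16 against 39.3%. Such matches describe the letters of these windows and are no evidence of binding.

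GATA1 itself, the gene targeted by the shRNA, was measured by probe A_24_P374244. Its log2 ratio was -0.21 and -0.34 on the arrays of GATA1 5-13 and -0.43 and -0.58 on those of GATA1 4-14. At this probe alone, 82.7% of the GATA1 Neg level was left in GATA1 5-13 and 70.6% in GATA1 4-14. The paper also reports decreased GATA1 transcripts by RT-PCR and decreased protein by Western blot in both clones. Those measures were not set against the array values here. GATA1 was lower on 4 of 4 arrays, with a mean of -0.39 ± 0.16 (SD, n = 2 clones), and limma's Benjamini-Hochberg adjusted p was 0.61.

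Across the members, ERG and ETS2 had lower ratios at every probe on every array (at 1 of 3 and 2 of 3 probes where arrays were centred on the median in place of loess), RUNX3 had lower ratios on every array (on 3 of 4 with that centring), and the clone means of FLI1, GFI1 and RUNX1 had opposite signs. No member probe passed the adjusted threshold of 0.05 in limma, at which 0% of all probes were called, and 0 of the 21 reached the unadjusted p of 0.005 used in the study, against 0.901% of all probes. At an unadjusted p under 0.05 in limma there were 6 member probes, all of them lower, 28.6% of the 21 against 7.42% of all probes. They came from 3 genes, ERG, ETS2 and RUNX2. In all, 9 of 21 probes (42.9%) were lower on all 4 arrays, against 13.4% of all probes and 17.5% of the 24522 probes well above background in the brighter RNA. These 9 probes came from 5 genes, most of them from ERG and ETS2, so the shares count several probes of 1 gene. ERG and ETS2 lie on chromosome 21, where 52.3% of the other probes well above background in the brighter RNA were lower on all 4 arrays. With median centring in place of loess, which leaves the dye effect in each array, 4 member probes were lower on all 4 arrays against 4.47% of all probes, while the mean of the clones stayed below 0 for all probes of ERG, ETS2 and RUNX3. Only 2 of 21 were higher on all 4, against 12.8% of all probes, and neither was well above background in all channels. The median log2 ratio of the 21 probes was -0.32 in GATA1 5-13 and -0.13 in GATA1 4-14, where the medians of all probes lay at 0.00 in both.

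**Figure D1:**
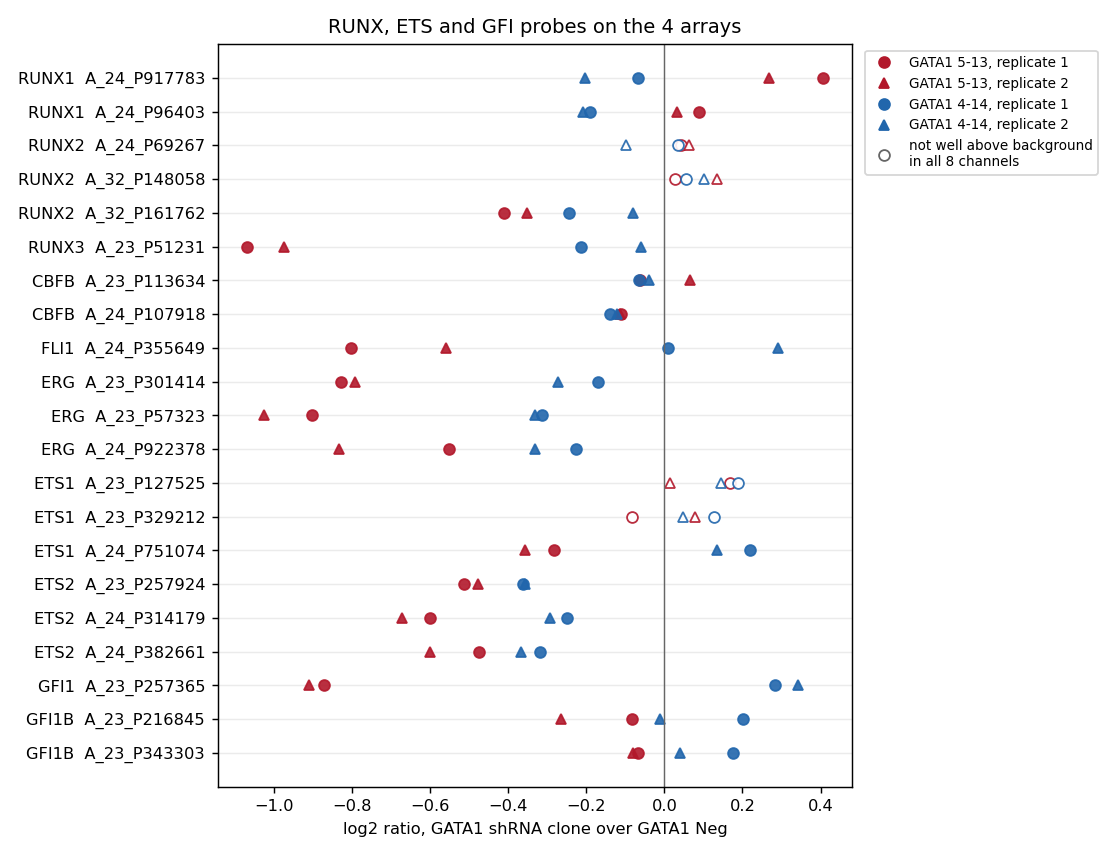
Log2 ratio of clone over GATA1 Neg (horizontal axis) for each of the 21 member probes (rows) on the 4 arrays; red marks GATA1 5-13, blue GATA1 4-14, circles replicate 1 and triangles replicate 2, and open symbols probes not well above background in all 8 channels. All 12 symbols of ERG and all 12 of ETS2 lie below 0, and the red and blue symbols of GFI1 lie on opposite sides of 0.

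ERG, an ETS factor needed for the upkeep of blood stem cells and expressed in megakaryocytes, had the lowest ratio among the ETS members. Probe A_23_P57323 (chromosome 21, 38676351 to 38676410 of hg18) gave -0.90 and -1.02 on the arrays of GATA1 5-13 and -0.31 and -0.33 on those of GATA1 4-14, which is 51.3% and 80.1% of the GATA1 Neg level. Both arrays of each clone lay close together, and the clones did not overlap. The mean was -0.64 ± 0.45 (SD, n = 2 clones), with a 95% interval of -1.24 to -0.04, an unadjusted p of 0.042 and an adjusted p of 0.67 from limma. Probe A_23_P301414 gave -0.83, -0.79, -0.17 and -0.27 on the same arrays in that order. Probe A_24_P922378, at intensities of 495 to 556 in GATA1 Neg, gave -0.55, -0.83, -0.23 and -0.33. Across the 3 probes the mean lay between -0.64 and -0.48, and each was lower in GATA1 5-13 than in GATA1 4-14.

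ETS2, a widely expressed ETS factor that acts downstream of RAS and MAP kinase signalling, had lower ratios on all arrays as well, with clones that differed less than those of ERG at each of its probes. Probe A_23_P257924 (chromosome 21, 39117433 to 39117492) gave -0.51 and -0.48 in GATA1 5-13 and -0.36 and -0.36 in GATA1 4-14, or 71.0% and 77.9% of the GATA1 Neg level. Its 4 values span less than those of any ERG probe. The mean of -0.43 ± 0.10 (SD, n = 2 clones) had a 95% interval of -0.63 to -0.22, and its unadjusted p of 0.007 was the lowest among the members, with an adjusted p of 0.56 from limma. Probe A_24_P382661 gave -0.47, -0.60, -0.32 and -0.37, with a mean of -0.44 and an unadjusted p of 0.01 in limma. Probe A_24_P314179 gave -0.60, -0.67, -0.25 and -0.29, with a mean of -0.45. The 3 probes thus had nearly equal means, and A_24_P314179 differed most between the clones.

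FLI1, the ETS factor that activates platelet glycoprotein genes and whose loss impairs megakaryocyte maturation, differed between the clones. Its only probe, A_24_P355649 (chromosome 11, 128187178 to 128187237), gave -0.80 and -0.56 in GATA1 5-13 but 0.01 and 0.29 in GATA1 4-14. The level was 62.4% of GATA1 Neg in the first clone and 111% in the second, and the arrays of the clones did not overlap. The mean of -0.27 had a 95% interval of -1.03 to 0.50 and an adjusted p of 0.82 from limma. ETS1, best known from lymphoid and endothelial cells, was measurable at 1 of 3 probes. There, A_24_P751074 gave -0.28 and -0.36 in GATA1 5-13 and 0.22 and 0.13 in GATA1 4-14, the same order of clones as FLI1. The array design places this probe over only 24 bases of the genome. Its other probes, A_23_P127525 and A_23_P329212, were not well above background in any of the 8 channels and have no fold here.

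RUNX3, a RUNX family member with roles in lymphoid and myeloid cells, had the lowest log2 ratio of all members in a single clone. Probe A_23_P51231 (chromosome 1, 25098920 to 25098979) gave -1.07 and -0.97 in GATA1 5-13, 49.3% of the GATA1 Neg level, and -0.21 and -0.06 in GATA1 4-14, 90.9% of it. All 4 arrays were below 0, but GATA1 5-13 minus GATA1 4-14 was -0.88. The mean of -0.58 ± 0.62 (SD, n = 2 clones) had a 95% interval of -1.39 to 0.23 and an adjusted p of 0.70 from limma.

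RUNX1, the RUNX factor of definitive blood formation and of megakaryocyte maturation, lay above GATA1 Neg in GATA1 5-13 and below it in GATA1 4-14 at both of its probes. Probe A_24_P917783 (chromosome 21, 35127650 to 35127708) gave 0.41 and 0.27 in GATA1 5-13 and -0.07 and -0.20 in GATA1 4-14. Probe A_24_P96403 (35082261 to 35082320), which lies elsewhere in the gene, gave 0.09 and 0.03, then -0.19 and -0.21. The arrays of the clones did not overlap at either probe, and the first probe had the larger ratios in GATA1 5-13. The adjusted p of the mean was 0.89 and 0.88 in limma. CBFB, the shared partner of the RUNX factors, had small ratios in both clones. At A_24_P107918 it gave -0.11 and -0.11 in GATA1 5-13 and -0.14 and -0.12 in GATA1 4-14, with a 95% interval of -0.29 to 0.05. At A_23_P113634 the values were -0.06, 0.07, -0.06 and -0.04, with an interval of -0.20 to 0.15.

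RUNX2, best known as the factor of bone formation, was dim. Probe A_32_P161762 (chromosome 6, 45626194 to 45626253), at intensities of 198 to 220 in GATA1 Neg, gave -0.41 and -0.35 in GATA1 5-13 and -0.24 and -0.08 in GATA1 4-14. The mean of -0.27 had an unadjusted p of 0.045 and an adjusted p of 0.67 in limma. Probe A_32_P148058 was well above background in 4 of 8 channels, where GATA1 Neg read 184 beside GATA1 5-13 on replicate 1 but 67.7 on replicate 2, and gave values of 0.03 to 0.14. Probe A_24_P69267 was not well above background in any channel and has no fold here.

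GFI1, the repressor best known from stem cells and granulocytes, showed the largest difference between the clones among the members. Probe A_23_P257365 (chromosome 1, 92713368 to 92713426) gave -0.87 and -0.91 in GATA1 5-13 and 0.28 and 0.34 in GATA1 4-14. The level was 53.9% of GATA1 Neg in the first clone and 124% in the second. The mean of -0.29 had a 95% interval of -1.38 to 0.80 and an adjusted p of 0.87 in limma. GFI1B, its relative in red cells and megakaryocytes, moved little by comparison. Probe A_23_P216845 gave -0.08, -0.26, 0.20 and -0.01, and A_23_P343303 gave -0.07, -0.08, 0.18 and 0.04. Both GFI1B probes lay lower in GATA1 5-13 than in GATA1 4-14.

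**Figure D2:**
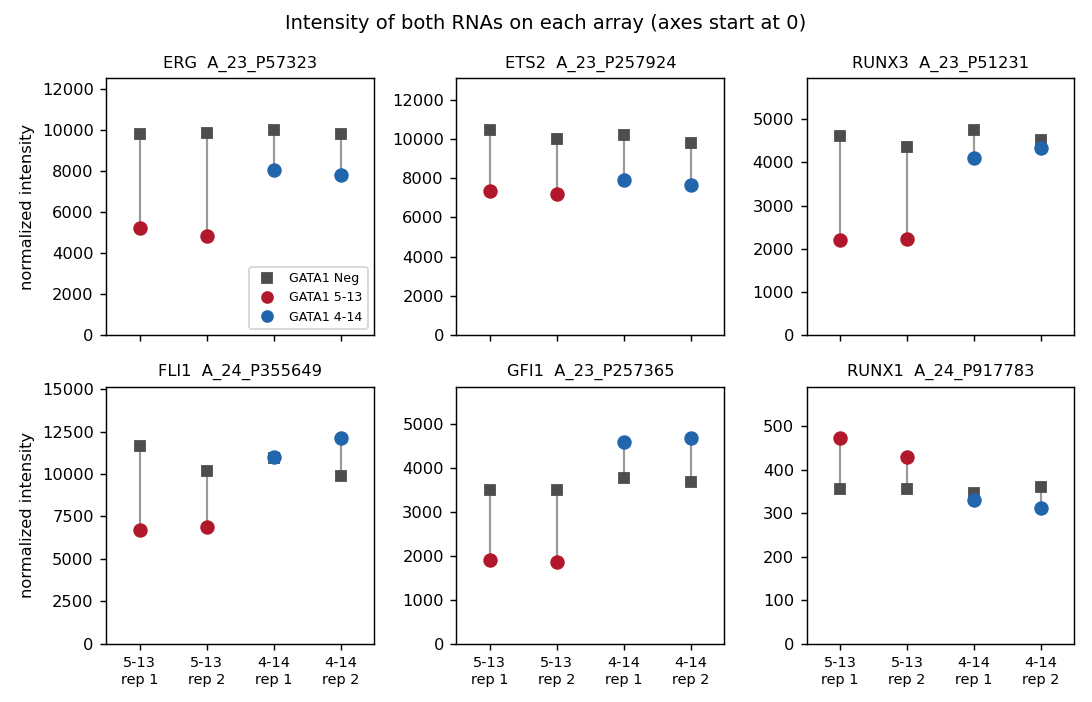
Normalized intensity (vertical axis, linear and starting at 0) of 1 probe each of ERG, ETS2, RUNX3, FLI1, GFI1 and RUNX1 in both RNAs of each array; grey squares are GATA1 Neg, red and blue circles the clones, joined by a line per array. GATA1 Neg of RUNX3 lies between 4363 and 4756, while RUNX3 in GATA1 5-13 reads 2198 and 2223.

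Set clone against clone, most members were lower in GATA1 5-13, although that clone kept more GATA1 RNA than GATA1 4-14 on these arrays. On both arrays of GATA1 5-13, 14 of 21 probes (66.7%) were lower than GATA1 Neg, against 33.4% of all probes, and 5 (23.8%) were higher, against 32.8%. Of these 5, only the 2 probes of RUNX1 were well above background in all channels. On both arrays of GATA1 4-14, 12 (57.1%) were lower, against 28.6% of all probes, and 7 (33.3%) were higher, against 28.2%. Of all 21 probes, 13 (61.9%) had both arrays of GATA1 5-13 below both of GATA1 4-14, against 25.2% of all probes on the array, and 4 (19.0%) had them above, against 24.2%. The 14, 12 and 13 lower probes came from 9, 6 and 8 of the 10 genes. The arrays of a clone are repeats of 1 clone against 1 control, so the difference between the clones has no test.

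**Figure D3:**
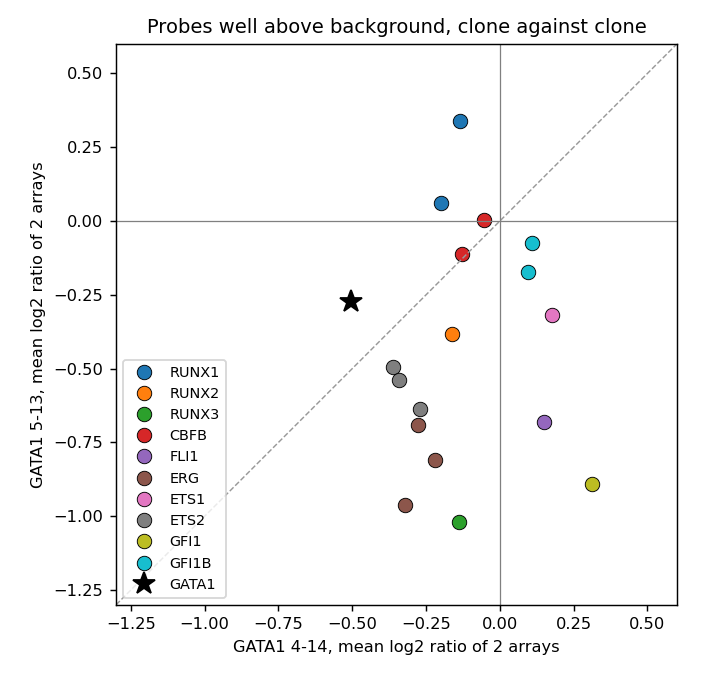
Mean log2 ratio of the 2 arrays of GATA1 4-14 (horizontal axis) and of GATA1 5-13 (vertical axis) for the 17 member probes well above background in all channels and for GATA1 (star); the dashed line marks equal ratios. ETS2 and ERG lie in the lower left, GFI1 and FLI1 in the lower right and RUNX1 in the upper left, and GATA1 lies above the dashed line.

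Some members lie near each other in the genome, and their neighbours were measured too. On hg18 the probes of ERG and ETS2 are 0.419 Mb apart and those of RUNX1 lie 3.549 Mb from ERG, all on chromosome 21, and ETS1 and FLI1 are 0.326 Mb apart on chromosome 11. Over all other probes within 2 Mb, the median log2 ratio around ERG was -0.08 in GATA1 5-13 and -0.10 in GATA1 4-14, and around ETS2 it was -0.10 and -0.11. The windows of ERG and ETS2 overlap, so most of their neighbours are the same probes, several of them of the same gene. Their values are therefore not separate results. Dim probes, whose ratios lie near 0, take part in these medians. Over probes well above background in the brighter RNA, a filter chosen after the data were seen, the medians were -0.30 and -0.26 around ERG (33 probes), -0.34 and -0.25 around ETS2 (31 probes) and -0.12 and -0.29 around RUNX1 (47 probes), which had -0.05 and -0.08 over all probes. Lower on all 4 arrays were 75.8% of those neighbours of ERG and 77.4% of those of ETS2. The share was 52.3% of such probes on chromosome 21 and 17.5% of such probes on the whole array. Over such probes of chromosome 21 without ERG, the medians were -0.13 in GATA1 5-13 and -0.22 in GATA1 4-14.

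Set against these neighbours, ERG stood apart more in GATA1 5-13 than in GATA1 4-14, and ETS2 lay below the median of its neighbours in both clones at its 3 probes. ERG probe A_23_P57323 differed from the median of its neighbours by -0.66 in GATA1 5-13, where 0 of 33 neighbours were lower, and by -0.07 in GATA1 4-14, where 5 of 33 were lower. ETS2 probe A_23_P257924 differed from its neighbours by -0.15 and -0.11, with 4 and 3 of 31 neighbours lower. In GATA1 4-14 the other probes had 12 and 20 of 33 neighbours lower for ERG and 4 and 10 of 31 for ETS2. RUNX1 probe A_24_P917783 was higher than all 47 neighbours in GATA1 5-13 and higher than 36 of 47 in GATA1 4-14.

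RUNX3 and GFI1, on the short arm of chromosome 1, also had neighbours that were lower in 1 clone. Over probes well above background, the 97 neighbours of RUNX3 centred on -0.46 in GATA1 5-13 and -0.00 in GATA1 4-14, and the 38 of GFI1 on -0.43 and 0.02 (medians). Over all probes these medians were -0.26 and 0.03 for RUNX3 (148 probes) and -0.22 and 0.00 for GFI1 (59 probes). RUNX3 differed from its neighbours by -0.56 in GATA1 5-13, with 5 of 97 lower, and by -0.13 in GATA1 4-14. GFI1 differed by -0.46 in GATA1 5-13, with 3 of 38 lower, and by 0.29 in GATA1 4-14, where all 38 neighbours were lower. Around FLI1 the 13 neighbours had medians of 0.16 and 0.11 (0.03 and 0.01 over all 37 probes), and FLI1 was below all of them in GATA1 5-13 and above 7 in GATA1 4-14. The part of these regional levels in the ratios of the members was not tested.

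**Figure D4:**
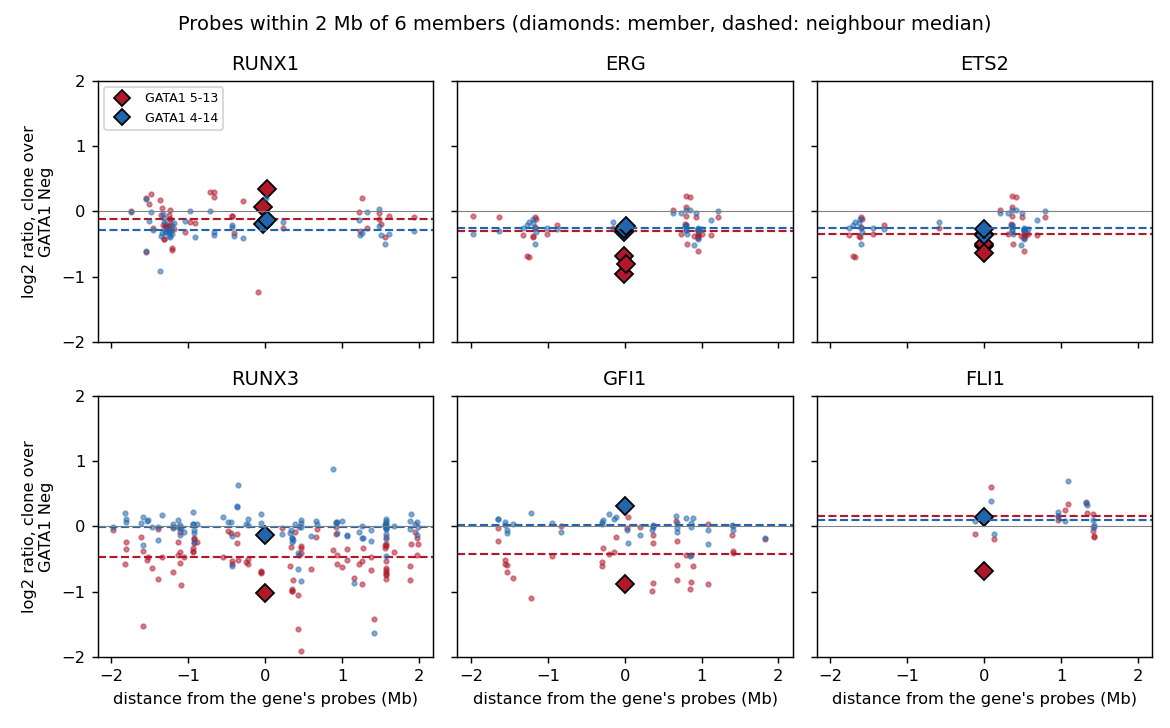
Log2 ratio of clone over GATA1 Neg (vertical axis) of probes well above background within 2 Mb of 6 members, against the distance from the member's probes in Mb (horizontal axis); diamonds are the member, dots its neighbours without other members, dashed lines their medians, red GATA1 5-13 and blue GATA1 4-14. Around RUNX3 and GFI1 the red medians lie at -0.46 and -0.43 with the blue ones near 0, and around ERG and ETS2 both lie below 0.

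The factors that work with these members were read from lists, of which each is described by its counts. Among partner factors of the megakaryocyte network (41 probes of 23 genes), 12 probes (29.3%) were lower on all 4 arrays and 2 (4.88%) higher, against 13.4% and 12.8% of all probes, and 2 passed the unadjusted p of 0.005, both of EVI1, a zinc finger factor of stem cells and myeloid leukemia. EVI1 probe A_23_P212688 gave -2.20 and -2.01 in GATA1 5-13 and -1.35 and -1.26 in GATA1 4-14, although the clone was well above background on only 1 of the 2 arrays of GATA1 5-13, with an unadjusted p of 0.0051 and an adjusted p of 0.56 in limma. At A_23_P317324, GATA1 5-13 did not rise well above background, so that EVI1 was lower by at least 3.17-fold, and the mean of GATA1 4-14 was -1.26. At A_24_P15154 it was not well above background in either clone and was at least 1.37-fold lower over both. These bounds set the mean of GATA1 Neg against the lowest signal well above background on each array, or the probe's own signal where that is higher. BCL11A, a zinc finger repressor of fetal globin genes, was higher on all 4 arrays at 2 probes, with means of 0.24 and 0.22. Another BCL11A probe, A_23_P218584, also well above background, gave 0.03 and 0.10 in GATA1 5-13 and -0.06 and -0.05 in GATA1 4-14.

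Other ETS factors (36 probes of 23 genes) had 6 probes (16.7%) lower on all 4 arrays, near the 13.4% of all probes, and 2 (5.56%) higher. ETV4, ETV1 and ELK3 each had a mean of -0.36, ETV1 at intensities of 138 to 173 in GATA1 Neg, and the higher probes were ELK1 at 0.23 and ERF at 0.12, factors that respond to MAP kinase signalling. Cofactors of RUNX and GFI (43 probes of 25 genes) had 8 (18.6%) lower and 5 (11.6%) higher, near the 13.4% and 12.8% of all probes. The corepressor CBFA2T3 had a mean of -0.48, the deacetylase HDAC2 of -0.31 and RCOR3, a partner of the demethylase complex, of -0.20, while YAP1 had 0.38 and SUV39H1 0.16. Megakaryocyte genes with RUNX or ETS input (33 probes of 20 genes) had 8 (24.2%) lower and 0 higher. Among them, GP1BA had -1.77 and -1.59 in GATA1 5-13 and -0.21 and -0.12 in GATA1 4-14 at probe A_23_P152926, and its other probe was not well above background in any channel. The array design places A_23_P152926 over only 32 bases on the minus strand and the other GP1BA probe on the plus strand. Whether A_23_P152926 detects GP1BA RNA was not tested. ITGA2B, the platelet integrin chain and a known target of these factors, had means of -0.30 and -0.29 at 2 probes. The median of each of the 4 lists lay between -0.05 and -0.02, where that of all probes was 0.00, and 0 probes of these lists passed the adjusted threshold in limma. EVI1 aside, 0 of their probes reached the unadjusted p of 0.005.

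Markers of the cell type and of other lineages were read alongside. Of 13 probes of 7 megakaryocyte markers, 7 were well above background in all channels. Their genes included ITGA2B, ITGB3, GP9 and, at the minus-strand probe alone, GP1BA, and PF4 was not above background. The summed intensity of the 13 probes was 16720 to 17750 in GATA1 Neg, 12610 to 13040 in GATA1 5-13 and 15270 to 15640 in GATA1 4-14. Erythroid markers (11 probes of 6 genes) summed to 219400 to 437700, 481800 to 488500 and 254100 to 390700 in the same order, with a wide range between the arrays of GATA1 Neg itself. Mast cell and basophil markers (4 probes) summed to 48910 to 54020, 39120 to 40760 and 51720 to 57780, of which HDC, the histidine decarboxylase, made up 46530 to 51700 in GATA1 Neg. In the same list, CPA3, a mast cell protease, stood at 163% and 365% of GATA1 Neg in GATA1 5-13 and GATA1 4-14, and MS4A2, an IgE receptor chain, at 45.0% and 46.1% (mean log2 ratio -1.14, unadjusted p of 0.00021 and adjusted p of 0.33 in limma). TPSAB1, the remaining marker of that list, was lower on all 4 arrays and stood at 55.4% and 83.7%. Granulocyte and monocyte markers (6 probes) summed to 687 to 725, 637 to 655 and 741 to 774, with MPO and CSF3R at background. Lymphoid markers (7 probes) summed to 1987 to 2115, 2089 to 2133 and 2022 to 2025, with CD2 at background. Fibroblast and endothelial markers (7 probes) summed to 9282 to 9912, 6562 to 6957 and 8503 to 8537, with CDH5 at background. PECAM1, which megakaryocytes also express, read 8816 to 9405 of that sum in GATA1 Neg, and kept 66.9% of it in GATA1 5-13 and 88.7% in GATA1 4-14. ITGA2B made up most of the megakaryocyte sum, with 10990 to 11690 and 3284 to 3707 in GATA1 Neg at its 2 probes. In GATA1 5-13 its log2 ratios were -0.38 and -0.42, while ITGB3 had -0.22 to -0.01 and GP9 had -0.12. The megakaryocyte sum was lowest in GATA1 5-13, the clone in which most members were lowest, and its part in their ratios was not tested. In RNA from whole cultures, fewer cells of a type and less RNA per cell cannot be told apart.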

How the data were processed

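RNA of each GATA1 shRNA clone and of GATA1 Neg was hybridized to 2-colour arrays, 2 per clone with swapped dyes. The authors deposited Agilent Feature Extraction 9.5.3.1 output, which places probes on hg18. Spot and local background intensities of both channels were deposited as measured, not normalized. Log10 ratios with an error, made by the same program, were deposited beside them, and the series-wide table repeats those log10 ratios as knockdown over control (largest difference 4.97e-06). Its marks of outlier, saturated and background spots, which the authors deposited as flags, were used to filter and describe.

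The tools were R 4.3.3, limma 3.58.1 and data.table version 1.17.8. Log2 ratios came from normexp background correction with an offset of 50, which makes the fold changes of dim probes smaller, followed by loess within each array. Control spots and 135 to 152 of 43376 spots marked as outliers were left out, 0 were saturated, and 61.6% to 66.4% of spots were well above background per channel. Spots of a probe were averaged, dye signs turned, and the 2 arrays of a clone averaged, since the sources name no separate RNA extracts. Limma tested the mean of 2 clones against 0 (two-sided), and p-values were adjusted by Benjamini-Hochberg over 40974 probes (threshold 0.05) and an unadjusted threshold of 0.005, as in the study. The p-values and intervals use the spread between 2 clones, which limma draws towards a common spread estimated from all 40974 probes. They rest largely on that common spread where the clones lie close together. Where the clones differ widely, as for GFI1 and RUNX3, they rest largely on the probe's own spread. The 2 clones and the shared GATA1 Neg pool limit the precision. The fit was tested on simulated data. Rosetta Resolver, used by the authors to combine arrays, was not used here. Promoter sequences come from RefSeq, GRCh38.p14.

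The members and lists were chosen with earlier results of these data known. Named were every member probe, GATA1, and from each list up to 3 probes with the largest fall and up to 3 with the largest rise among those that kept 1 sign on all 4 arrays and whose brighter RNA was well above background there, except 1 that is not reported here. Of the markers, counts, summed intensities and genes at background are given, and PECAM1, HBG1, HDC, CPA3, MS4A2 and TPSAB1 were named after their values were seen. The marker values of ITGA2B, ITGB3 and GP9 and the BCL11A probe without a common sign were also added after they were seen. Same-numbered arrays share the dye orientation, and their deviations from the clone means correlated with 0.773. Whether the number also pairs RNAs or labelling batches cannot be told apart from the dye. Alternatives tried were leaving out the background correction, using Feature Extraction log ratios or the series-wide table, median centring, Aquantile scaling, keeping outlier spots, testing bright probes alone, an intensity trend, the 4 arrays taken singly (without a replicate block, or with one), Feature Extraction log ratios weighted by their errors with a normal p, each array or clone left out, and neighbour windows of 1 and 5 Mb.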

Additional observations from a re-analysis of the deposited data

Results flagged for a closer look

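In 6 member probes that were well above background, both arrays of GATA1 5-13 moved one way and both arrays of GATA1 4-14 the other, and the difference between the clones was not tested. The share of all probes with such opposite moves was not counted, and the clone means of all 40974 probes correlated with 0.343. GFI1 at A_23_P257365 differed most, with GATA1 5-13 minus GATA1 4-14 at -1.20 on the log2 scale (-0.89 against 0.31). FLI1 at A_24_P355649 differed by -0.83 (-0.68 against 0.15), where 1 array of GATA1 4-14 lay at 0.01, and ETS1 at A_24_P751074 by -0.50 (-0.32 against 0.18). GFI1B at A_23_P343303 differed by -0.18 (-0.07 against 0.11). RUNX1 went the opposite way, by 0.47 at A_24_P917783 (0.34 against -0.14) and by 0.26 at A_24_P96403 (0.06 against -0.20). The signs on single arrays did not hold under every scaling. With median centring in place of loess, FLI1 had -0.02 on 1 array of GATA1 4-14, RUNX1 A_24_P917783 had 0.006 on 1 array of GATA1 4-14, and RUNX1 A_24_P96403 split by dye in both clones (0.48 and -0.23, then 0.08 and -0.46). FLI1 had -0.006 on 1 array of GATA1 4-14 with no background correction, and GFI1B A_23_P343303 had 0.02 on 1 array of GATA1 5-13 with Feature Extraction log ratios.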

How the results depend on the processing

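Of the 15 alternatives with a test, 2 gave member probes with an adjusted p under 0.05: the 4 arrays as 4 values with no replicate block gave 2 (both ETS2), and the error-weighted mean gave 8 (3 of ERG, 3 of ETS2, 1 each of RUNX3 and RUNX2). At an unadjusted p of 0.005 these gave 5 and 8 probes, and the 4 arrays with a replicate block gave 2, with 0 after adjustment. The share of all probes called was not counted in these alternatives, so their counts cannot be set against the whole array. The fits of single arrays take both arrays of a clone as separate values, and the error-weighted p rests on Feature Extraction errors alone. The probes lower on all 4 arrays numbered 4 with median centring in place of loess and 14 over the 2 arrays of GATA1 5-13 alone. Those higher numbered 0 with the Feature Extraction log ratios, the series-wide table, the error-weighted mean and the filter on dim probes, 1 with median centring, 5 in GATA1 5-13 alone and 7 in GATA1 4-14 alone. Leaving out 1 array gave 9 to 10 probes lower and 2 to 3 higher on the remaining arrays, and 0 to 0 at either p threshold. Of the comparisons of single log2 ratios with an alternative that keeps both clones, 240 kept their direction and their side of the threshold, 10 passed the adjusted threshold only in the alternative, and 5 changed sign, all near 0: CBFB A_23_P113634 at 0.0028 with median centring and, with 1 array left out, CBFB A_23_P113634 (-0.057 to 0.0069), GFI1B A_23_P216845 (-0.092 to 0.015, once also 0.0070) and GFI1B A_23_P343303 (-0.016 to 0.052). The cause was not tested. Aquantile scaling, the filter on bright probes, the intensity trend and both fits of single arrays kept the same log2 means. No sign could change there. The series-wide table repeats the Feature Extraction log ratios, so the 240 are not independent checks. In a clone alone, which has no test, 3 of 17 ratios changed sign in GATA1 5-13 and 5 of 17 in GATA1 4-14, up to GFI1 at 0.31 against a mean of -0.29. The ratio of ERG A_24_P922378 ranged from -0.59 to -0.30 and that of RUNX2 A_32_P161762 from -0.44 to -0.11, both dim and both smallest with no background correction. With windows of 1 and 5 Mb, the median of the neighbours of ERG in GATA1 5-13 was -0.10 and -0.06, that of ETS2 -0.09 and -0.03, that of RUNX3 -0.28 and -0.17 and that of RUNX1 0.01 and -0.08. Signal over background limits ETS1 and RUNX2, where 4 of 6 probes were not well above background in all channels.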
